A study of Mus musculus with 7 samples.

Results

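Cholinergic neurons make the transmitter acetylcholine with the enzyme choline acetyltransferase, encoded by Chat. Cells carrying this transcript were examined in tissue sections of the mouse forebrain. A cell was taken as a Chat cell when it held at least 4 Chat transcripts and at least 50 transcripts in all, and 2678 of the 373198 cells with at least 50 transcripts met this rule (384076 cells were deposited in all). The Chat cells were divided by their transmitter genes. GABA-gated cells held 5 or more transcripts of Gad1 and Gad2 together, which encode the enzymes that make GABA. Glutamate-gated cells held 5 or more transcripts of Slc17a6 or of Slc17a7, which encode vesicular glutamate transporters. There were 1826 Chat cells past the GABA gate alone, 118 past the glutamate gate alone, 365 past neither and 369 past both. Chat, Gad1, Gad2, Slc17a6 and Slc17a7 chose the cells, so their values are a description and were not tested. The members were thus chosen by their own Chat, Gad1, Gad2, Slc17a6 and Slc17a7 counts.

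The sections were hemisections of wild-type mouse brain cut through the anterior thalamus, fresh frozen and 10 µm thick, and 297 genes were counted per cell by Xenium, which reads single RNA molecules in place by repeated imaging. Sections carried no treatment or allele, and they differed in position along the front-to-back axis: 2 anterior sections at bregma -0.58 mm, 2 intermediate sections between -0.70 and -0.82 mm, and 3 posterior sections at -0.94 mm. Sections held 17438577 to 23432215 transcripts each, and the median cell held 339 transcripts. Nothing in the labels ties a section to an animal, and the p-values below measure the spread between sections only.

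In the striatum, cholinergic neurons are large, sparse interneurons that carry the substance P receptor Tacr1 and the muscarinic autoreceptor Chrm2. The basal forebrain holds cholinergic projection neurons, the medial habenula holds cholinergic neurons that also carry glutamate transporters, and some of the cortical interneurons that make the peptide Vip contain Chat in rodents. Acetylcholine is loaded into vesicles by Slc18a3, and choline is taken up by Slc5a7. Of these 3 cholinergic markers only Chat was among the genes counted, so the label of cholinergic neuron rests on Chat and on the genes that went with it. Tacr1 and Chrm2 were the 2 genes counted of 8 markers listed for striatal and basal forebrain cholinergic neurons, and Nwd2 was the only gene counted of 7 listed for the medial habenula, so no class was given a regional name.

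Chat cells made up 7.63 and 6.39 of every 1000 cells in the anterior sections, 7.92 and 5.66 in the intermediate sections and 6.45, 9.56 and 6.39 in the posterior sections, with a mean of 7.14 ± 1.32 (SD, n = 7). Cells past the GABA gate alone were the largest class of Chat cells in every section. They held 68.1% of the Chat cells on average, with the lowest section at 55.5% and the highest at 74.2%. Cells past neither gate held 13.5% (9.51% to 18.2%) and cells past both gates 13.8% (11.9% to 16.4%). Cells past the glutamate gate alone were the scarcest and the most uneven, at 4.61% on average, with a lowest section of 0.943% and a highest of 15.5%. Of these 118 cells, 51 lay in posterior replicate 1, against 3 to 23 in each of the other sections. Of all 373198 cells with at least 50 transcripts, 92237 passed the GABA gate alone and 124197 the glutamate gate alone. Another 109414 passed neither gate and 47350 passed both. The Chat limit was met by 0.718% of all cells, 0.779% of those past both gates and 0.334% of those past neither. The share of Chat cells past both gates was thus near that of all cells.

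**Figure D1:**
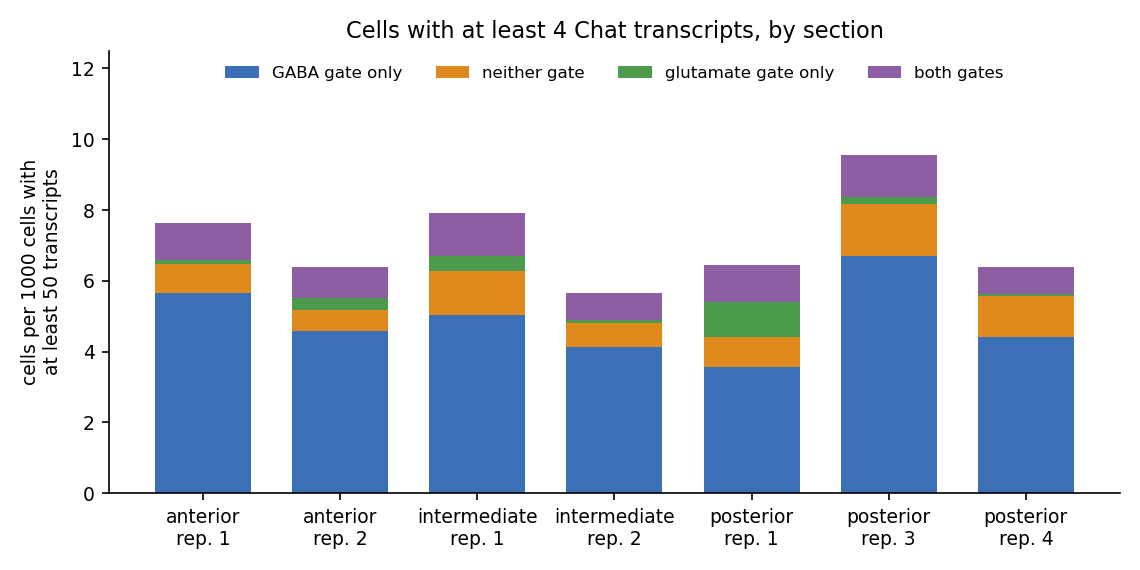
Chat cells per 1000 cells with at least 50 transcripts (vertical axis) in each of the 7 sections (horizontal axis), with each bar divided by colour into cells past the GABA gate, the glutamate gate, both gates and neither. The GABA-gated part was the largest in every section, and the glutamate-gated part was largest in posterior replicate 1.

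Chat itself differed among the classes. The median cell held 9 Chat transcripts in the GABA-gated class (quartiles 5 and 20, highest 138), 7 past neither gate, 6 past the glutamate gate and 6 past both. Among the 544 cells with 20 or more Chat transcripts, 88.4% were GABA-gated, 6.25% passed neither gate, 4.41% passed both and 0.919% were glutamate-gated. Among the 891 cells with 4 or 5 Chat transcripts the GABA-gated share was 60.7%, and 18.5% passed both gates. The median depth was 635.5 transcripts in the cells with 20 or more and 402 in those with 4 or 5. The gates, being fixed counts, are easier to pass in deeper cells. The values on either side of the limit were close: 58.2% of the 887 cells with 3 Chat transcripts, just outside the rule, were GABA-gated, against 61.6% of the 515 cells with 4. A Gad1 and Gad2 sum of 4 was held by 120 Chat cells, just below the GABA gate, and a sum of 5 by 108.

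**Figure D2:**
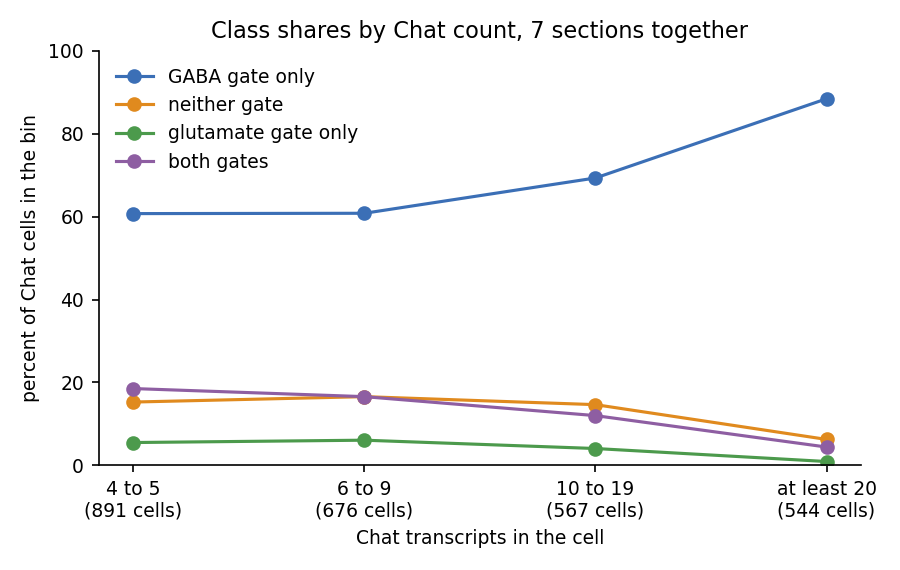
Percent of Chat cells in each class (vertical axis) by the number of Chat transcripts in the cell (horizontal axis), pooled over the 7 sections. The GABA-gated share was 60.7% at 4 or 5 transcripts and 88.4% at 20 or more, while the shares past both gates and past neither were lower at 20 or more than at 4 or 5. Median depth was 402 transcripts per cell at 4 or 5 and 635.5 at 20 or more.

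Chat transcripts were also counted in cells rich in transcripts of glia and vessels. Among cells past neither transmitter gate with 20 or more oligodendrocyte transcripts, 128 of 25746 (0.497%, Wilson 95% interval 0.418% to 0.591%, median depth 178 transcripts) met the Chat limit. The share was 0.460% with 20 or more astrocyte transcripts, 0.308% for endothelial and 0.283% for microglial transcripts. It was 1.98% of all cells past the GABA gate alone (median depth 376) and 0.779% of those past both gates (median depth 569). It was 0.334% of all cells past neither gate and 0.0950% of those past the glutamate gate alone (median depth 444), both no higher than in the oligodendrocyte-gated cells. The glial-gated cells with Chat belong to the class past neither gate, so they are no independent background for that class. Both classes are described below by genes the rule did not use. Intervals cover counting error only.

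GABA-gated Chat cells carried a set of genes that were scarce in GABA-gated cells with no Chat transcript. Levels are given as transcripts per 1000 transcripts of the 292 genes outside the rule, one value per section. Cd44, a receptor for hyaluronan, had 4.44, 5.24 and 7.79 per 1000 in the lowest, median and highest section of Chat cells, against 0.180, 0.213 and 0.254 in cells without Chat. Sncg, which encodes gamma-synuclein, had 6.29, 9.52 and 11.9 in Chat cells, against 0.320, 0.374 and 0.717 in cells without Chat. Tacr1 had 7.36, 8.04 and 10.6 in Chat cells, against 0.503, 0.600 and 0.762 in cells without Chat. For none of these 3 genes did the sections of Chat cells overlap those of cells without Chat. Overlap was not counted for the other genes, so its absence does not set these 3 apart.

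The difference was tested on the summed counts of each section, with the section as a block, by edgeR's quasi-likelihood test with Benjamini-Hochberg adjustment over all genes tested. Of 292 genes, 181 (62.0%) differed at an adjusted p below 0.05, 89 higher and 92 lower in Chat cells. With total counts in place of the TMM scaling the split was 66 higher and 138 lower, and the median of all genes shifted by -0.21 on the log2 scale. In this edgeR test Cd44 was 30.4-fold higher in Chat cells (log2 4.93, SE 0.15, adjusted p = 6.0e-11), Sncg 25.2-fold higher (log2 4.65, SE 0.24, adjusted p = 8.2e-09) and Tacr1 16.5-fold higher (log2 4.04, SE 0.13, adjusted p = 1.5e-10). Each was higher in 7 of 7 sections.

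The other marker of the striatal and basal forebrain list, Chrm2, had 9.63, 10.6 and 11.6 per 1000 in Chat cells, against 2.01, 2.22 and 2.54 in cells without Chat, and was 5.42-fold higher (log2 2.44, SE 0.08). Rab3b, a vesicle-associated GTPase, had 24.0, 26.4 and 30.5 in Chat cells, against 4.08, 4.69 and 6.09 in cells without Chat (log2 2.70, SE 0.08). Of 8 genes for peptide and amine receptors 4 were higher and 2 lower, against 30.5% of all genes higher and 31.5% lower: the mu opioid receptor Oprm1 averaged 6.83 in Chat cells and 2.59 in cells without Chat (log2 1.63, SE 0.11), and the relaxin receptor Rxfp1 had a log2 difference of 2.21, while Ramp3, a partner of the calcitonin family receptors, was lower (log2 -2.70). Both monoamine genes counted were higher at low levels: Slc6a3, the dopamine transporter, had a median section of 0.0925 in Chat cells and 0.0211 in cells without Chat (log2 2.34, SE 0.41), and Th, tyrosine hydroxylase, had 0.423 in Chat cells and 0.209 in cells without Chat (log2 1.52, SE 0.21). All 7 genes of release machinery passed the test, 4 higher and 3 lower, against 62.0% of all genes that passed. Among the 4 higher were Rab3b, Syt17 (log2 1.43) and the active-zone gene Rims3 (log2 0.95), and Cplx3, a complexin, was lower (log2 -2.20).

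Most markers of other interneurons and of striatal projection neurons were lower in the Chat cells. The list of Vip interneuron markers went the other way, with 3 of 5 higher and 0 lower, against 30.5% of all genes higher. Pvalb, the calcium-binding protein of fast-spiking interneurons, had 2.15, 4.0 and 6.13 per 1000 in Chat cells, against 12.2, 19.1 and 25.6 in cells without Chat (log2 -2.03). The other lower markers included Sst, somatostatin, at a mean of 0.276 in Chat cells and 1.02 in cells without Chat, and the related peptide Cort (log2 -2.64). In all, 5 of 6 markers of other interneurons were lower and 0 higher, against 31.5% of all genes lower. Of 6 genes of striatal projection neurons, which use GABA and make up most of the striatum, 5 were lower: Pdyn, the precursor of dynorphin (log2 -0.95), Ppp1r1b, a phosphatase inhibitor (log2 -0.76), the transcription factors Meis2 (log2 -0.60) and Foxp1 (log2 -0.51), and Penk, the precursor of enkephalin (log2 -0.39). The sixth, Gucy1a1, a subunit of the nitric oxide receptor, was higher (log2 0.70). Of 23 transcription factors, 15 were lower and 3 higher, and of 22 genes of axon guidance and adhesion, 9 were higher and 3 lower, where 30.5% of all genes were higher. The adhesion genes that were higher included Mdga1 (log2 1.94). Of 8 ion channel genes, 5 were lower and 1 higher, the cation channel Trpc4 (log2 1.58).

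**Figure D3:**
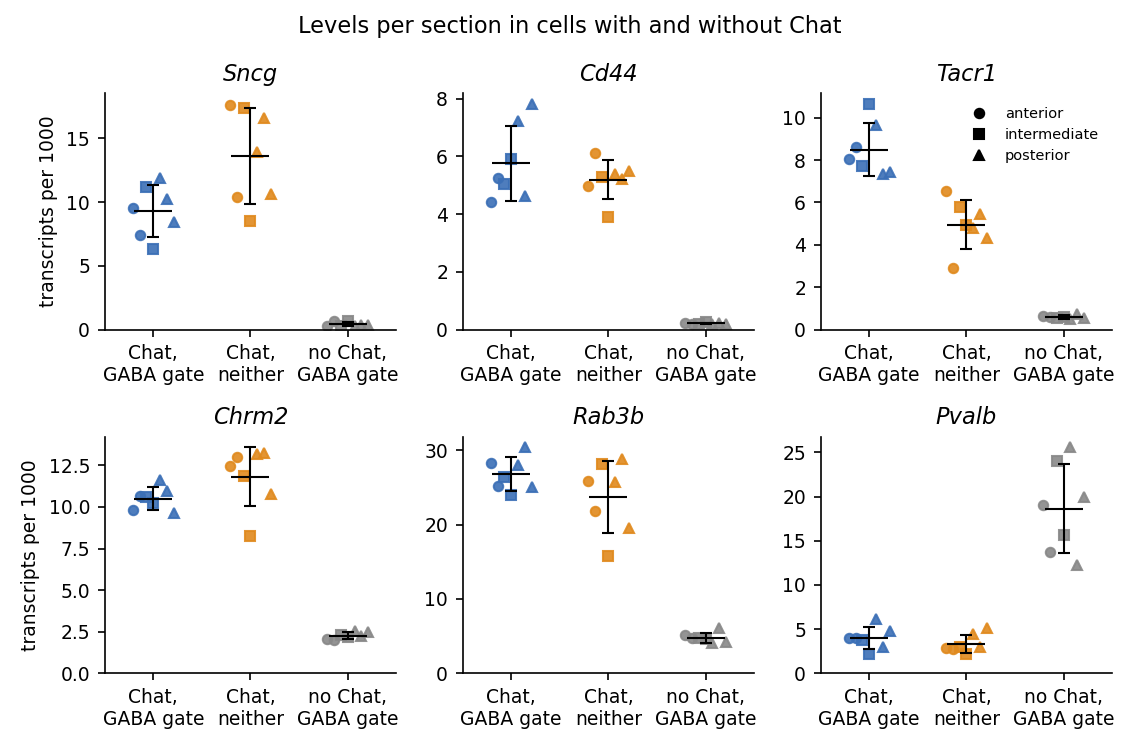
Transcripts per 1000 (vertical axis of each panel) of Sncg, Cd44, Tacr1, Chrm2, Rab3b and Pvalb in GABA-gated Chat cells, Chat cells past neither gate and GABA-gated cells without Chat. Each point is 1 of 7 sections, with its shape giving the position, lines are means and bars are SD; the GABA-gated Chat cells lie above the cells without Chat for 5 genes and below them for Pvalb.

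The same genes followed the amount of Chat within the GABA-gated class. Pooled over sections, the 541 cells with 4 or 5 Chat transcripts had 2.89 Tacr1 transcripts per 1000, the cells with 6 to 9 had 4.78, those with 10 to 19 had 8.80, and the 481 cells with 20 or more had 14.6. Chrm2 had 4.28, 5.82, 10.4 and 18.2 over these bins, and Sncg had 1.68, 3.28, 7.10 and 20.2. Penk ran the other way, at 12.6, 11.1, 8.83 and 4.61, as did Ppp1r1b at 19.99, 19.6, 13.0 and 6.26 and Meis2 at 25.4, 24.2, 17.6 and 9.09. So the GABA-gated cells with few Chat transcripts had levels of striatal projection genes nearer to those of cells without Chat, where Ppp1r1b averaged 27.0. These bins were chosen after values of these genes were known and are a description. The protocadherin Pcdh10, chosen after its values were seen, was level at 19.02 in the lowest bin and 19.9 in the highest.

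Chat cells past neither gate carried the Chat-associated genes together with transcripts of glia and vessels. Per 1000, Sncg had 8.55, 13.9 and 17.7 in the lowest, median and highest section of these cells, against 6.29, 9.52 and 11.9 in GABA-gated Chat cells (log2 0.51, SE 0.10). Opalin, a myelin protein of oligodendrocytes, had 13.4, 15.8 and 20.3 past neither gate, against 3.72, 4.33 and 7.33 in GABA-gated Chat cells. The cells were also shallower, with a median of 256 transcripts past neither gate and 476 in GABA-gated Chat cells, and the gate, being a fixed count, is harder to pass in a shallow cell. Control-probe counts, a measure of stray signal, averaged 1.46 per cell past neither gate and 0.959 in GABA-gated Chat cells.

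In edgeR's quasi-likelihood test of the cells past neither gate against GABA-gated Chat cells, 188 of 287 genes (65.5%) differed at a Benjamini-Hochberg adjusted p below 0.05, 93 higher and 95 lower past neither gate. Opalin was 3.42-fold higher by this edgeR test (log2 1.77, SE 0.10, adjusted p = 3.0e-09). All 3 oligodendrocyte markers, all 6 astrocyte markers and all 11 endothelial markers were higher, as were 6 of 7 microglial, 6 of 7 fibroblast, 4 of 5 mural and 2 of 3 oligodendrocyte precursor markers, against 32.4% of all genes higher. The gate itself keeps cells with few GABA and glutamate transcripts, among them glia and vessel cells, so a difference in this direction follows from it. Cells past neither gate without Chat were not compared, so these counts are not shown to be particular to Chat cells. Summed per 1000, the oligodendrocyte markers came to 56.1 ± 5.94 past neither gate (48.1 to 63.5), 18.05 ± 4.15 in GABA-gated Chat cells (12.4 to 25.6) and 16.6 ± 1.96 in GABA-gated cells without Chat (13.6 to 19.1; SD, n = 7 each). The astrocyte markers came to 52.3 ± 9.98 past neither gate, 26.5 ± 4.75 in GABA-gated Chat cells and 30.3 ± 1.18 in cells without Chat. The endothelial markers came to 32.4 ± 6.20 past neither gate, 11.7 ± 2.56 in GABA-gated Chat cells and 14.9 ± 0.923 in cells without Chat. The part of these transcripts in the other differences was not tested. With the glial and vascular markers left out, 157 genes differed, 75 higher and 82 lower.

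**Figure D4:**
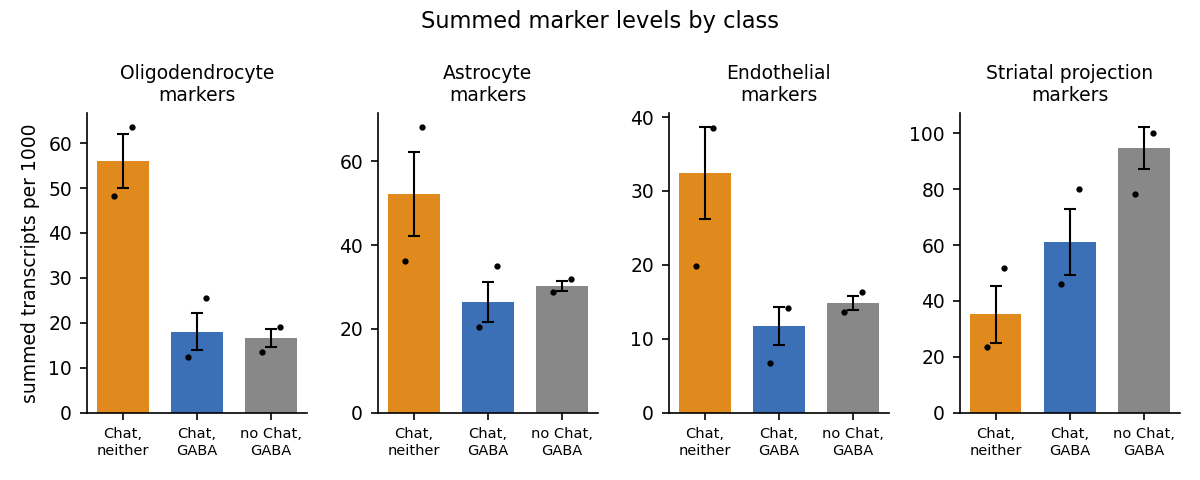
Summed transcripts per 1000 (vertical axis) of the oligodendrocyte, astrocyte, endothelial and striatal projection lists in Chat cells past neither gate, GABA-gated Chat cells and GABA-gated cells without Chat. Bars are means over 7 sections with SD, and dots are the lowest and highest section; the oligodendrocyte sum was 56.1 past neither gate and 18.05 in GABA-gated Chat cells.

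Of the 365 Chat cells past neither gate, 232 (63.6%) held 20 or more transcripts of the oligodendrocyte, astrocyte, microglial or endothelial list. Of all 109414 cells past neither gate, 25746 held 20 or more oligodendrocyte transcripts, 18479 astrocyte, 16539 endothelial and 4942 microglial transcripts. A cell may count for more than 1 list, and the share with any was not computed. The 63.6% is therefore not shown to be particular to the Chat cells. The other 133 of these Chat cells held fewer, and their levels of Chat-associated genes were higher. Levels are per 1000 transcripts, so choosing cells with few glial transcripts raises the other genes in part by construction. Pooled, these 133 cells had 20.8 Sncg, 7.72 Tacr1, 16.6 Chrm2 and 34.5 Rab3b transcripts per 1000, at a median depth of 183 transcripts. The 232 cells rich in glial or vascular transcripts had 11.3 Sncg, 4.0 Tacr1, 9.98 Chrm2 and 20.2 Rab3b, at a median depth of 294. The pooled levels of all 4 genes in the glia-rich cells were above the highest sections of GABA-gated cells without Chat, at 0.717, 0.762, 2.54 and 6.09. Those are cells of another kind, and levels in glia-rich cells past neither gate without Chat were not computed. Whether these transcripts came from the cell itself or from a neighbour was not tested. This division was chosen after the values were seen and was not tested.

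Genes of striatal projection neurons were low past neither gate. All 6 of them were lower than in GABA-gated Chat cells, against 33.1% of all genes lower. Pdyn averaged 0.187 per 1000 past neither gate and 1.57 in GABA-gated Chat cells (log2 -3.10, SE 0.35), and Penk had 1.41, 2.35 and 5.05 past neither gate, against 7.30, 8.23 and 12.6 in GABA-gated Chat cells (log2 -1.69, SE 0.14). Neuropeptide genes had 5 of 7 lower and 0 higher. Lower too were the striatal transcription factors Bcl11b (log2 -1.63) and Foxp2 (log2 -1.66), the neuropeptide Y receptor Npy2r (log2 -2.16), Oprm1 (log2 -1.05) and the guidance gene Sema3a (log2 -1.94).

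Prox1 and Unc13c, both used by neurons, were higher past neither gate. Prox1, a homeobox transcription factor, had 6.17, 7.30 and 9.35 per 1000 past neither gate, against 2.24, 3.15 and 4.64 in GABA-gated Chat cells (log2 1.18, SE 0.11). Prox1 is also made by oligodendrocyte-lineage cells, and it had 9.03 in the glia-rich cells and 4.08 in the rest. Unc13c, a vesicle-priming gene, had 17.3, 21.5 and 26.3 past neither gate, against 9.50, 12.0 and 13.4 in GABA-gated Chat cells (log2 0.86, SE 0.10), with 23.2 in the glia-rich cells and 17.4 in the rest. Tacr1 was lower, at 2.90, 4.94 and 6.52 past neither gate, against 7.36, 8.04 and 10.6 in GABA-gated Chat cells (log2 -0.78, SE 0.14). Chrm2 did not pass the test (log2 0.14, SE 0.10, adjusted p = 0.21 by edgeR's quasi-likelihood test), nor did Cd44 (log2 -0.15) or Rab3b (log2 -0.22).

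Set against GABA-gated cells without Chat, the cells past neither gate had log2 differences of 4.89 for Sncg, 4.48 for Cd44, 2.93 for Tacr1, 2.27 for Chrm2 and 2.18 for Rab3b. In that comparison 204 of 292 genes (69.9%) differed, 97 (33.2%) higher and 107 (36.6%) lower. The comparison differs in gate as well as in Chat. It shares its cells without Chat with the comparison of GABA-gated Chat cells, where the same 5 genes had 4.65, 4.93, 4.04, 2.44 and 2.70. All 6 markers of other interneurons were lower, including Sst (log2 -3.40), Lamp5 (log2 -2.90) and Pvalb (log2 -2.60). Of 8 neuropeptide genes 7 were lower, Pdyn by most (log2 -4.35). The dopamine transporter Slc6a3 was higher (log2 2.17), and this call was lost without posterior replicate 4, at 1.57.

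Chat cells past both gates fell into cells that passed by one glutamate transporter or by the other, and these differed in several genes. The division was chosen after values were seen, so it is described without a test. The 150 cells that passed by Slc17a7 alone, 17 to 28 per section, were Vip cells: 143 of them (95.3%) held 5 or more Vip transcripts. They averaged 40.7 Vip transcripts per 1000, with sections between 33.5 and 50.9. The 213 cells that passed by Slc17a6 alone, 13 to 46 per section, averaged 0.294, and 1 of them held 5 Vip transcripts or more. The remaining 6 cells passed by both transporters.

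The Slc17a7 cells carried markers of Vip interneurons. Calb2, the calcium-binding protein calretinin, averaged 25.7 per 1000, Prox1 21.3, Adarb2, an RNA-editing family gene, 17.7 (14.2 to 21.6), Igf1, insulin-like growth factor 1, 15.1, and Crh, corticotropin-releasing hormone, 5.15. Tacr1 was at 0 in every section of these cells, and Chrm2 averaged 0.605. The Slc17a6 cells had nearly as much Calb2, at 27.9 (19.8 to 36.2), but also 21.8 of the non-coding RNA Rmst, against 3.14 in the Slc17a7 cells. They had Tacr1 at 3.0 (1.78 to 4.56), Chrm2 at 5.97, the serotonin receptor Htr2c at 11.9, Meis2 at 24.1 and Igf1 at 1.32. Their levels of these genes lay near those of the glutamate-gated Chat cells described next, which had 26.2 Calb2, 2.75 Tacr1, 5.0 Chrm2, 14.5 Htr2c and 30.8 Meis2, and apart from them in Igf1, at 6.43.

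**Figure D5:**
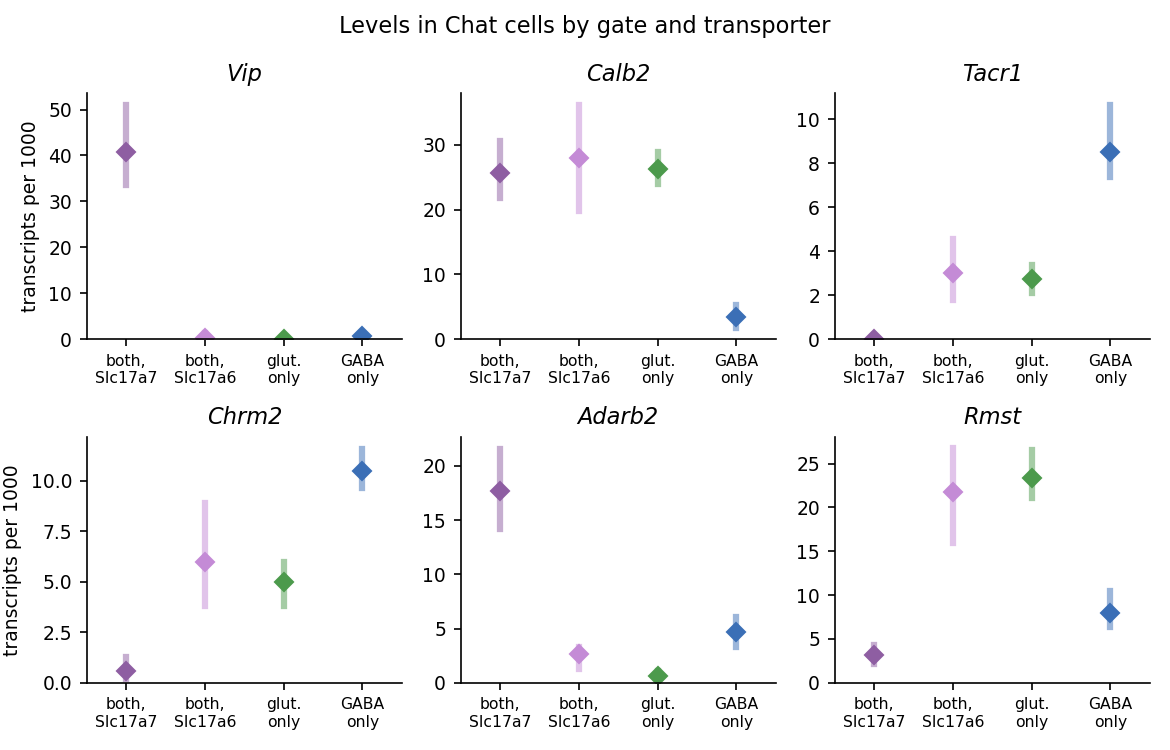
Transcripts per 1000 (vertical axis of each panel) of Vip, Calb2, Tacr1, Chrm2, Adarb2 and Rmst in Chat cells past both gates by Slc17a7, past both gates by Slc17a6, past the glutamate gate alone and past the GABA gate alone. Diamonds are means over sections with at least 10 cells of the class and bars run from the lowest to the highest section; Vip averaged 40.7 in the Slc17a7 cells and 0.294 in the Slc17a6 cells.

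Chat was found in a small part of the Vip cells. Of 3331 cells past the GABA gate with 5 or more Vip transcripts, 181 (5.43%, sections 4.27% to 7.56%) held 4 or more Chat transcripts. Of these 181 cells, 150 passed both gates and 31 the GABA gate alone, where they were 1.70% of the class. Slc17a7 reached 5 transcripts in 82.3% of Vip cells with Chat (Wilson 95% interval 76.1% to 87.2%) and in 74.2% of Vip cells with no Chat transcript (interval 72.5% to 75.9%), at median depths of 546 transcripts with Chat and 500 without. Both intervals pool cells over sections and cover counting error only, not the spread between sections. The difference between the 2 shares was not tested. Most Vip cells thus passed the Slc17a7 gate with or without Chat. Of all cells past the GABA gate, Vip cells included, 47350 also passed the glutamate gate by either transporter and 92237 did not. The Chat limit was met by 0.779% of the former and 1.98% of the latter. The Slc17a7 share was not computed for GABA-gated cells with fewer Vip transcripts. The part of neighbouring cells' transcripts in these counts was not tested.

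Glutamate-gated Chat cells were set against glutamate-gated cells without Chat in the 4 sections with at least 10 such Chat cells: anterior replicate 2, intermediate replicate 1 and posterior replicates 1 and 3. Calb2 had 24.0, 26.0 and 28.9 per 1000 in the lowest, median and highest of these sections, against 1.87, 2.84 and 6.55 in glutamate-gated cells without Chat. Igf1 had 5.40, 6.48 and 7.36 in Chat cells, against 0.243, 0.343 and 0.385 in cells without Chat. Htr2c had 10.9, 14.9 and 17.3 in Chat cells, against 1.22, 1.68 and 2.19 in cells without Chat. The groups did not overlap for any of the 3 genes, and overlap was not counted for the other genes.

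Of 292 genes, 135 (46.2%) differed at an adjusted p below 0.05, 65 higher and 70 lower in Chat cells. Chodl, a membrane lectin, had a log2 difference of 5.07 (SE 0.34), Tacr1 4.66 (SE 0.36), Igf1 4.43 (SE 0.19), Sncg 3.54 (SE 0.41), Htr2c 3.19 (SE 0.22) and Calb2 3.15 (SE 0.26). The lower genes were led by Lamp5 (log2 -6.08) and Neurod6 (log2 -5.97), genes of cortical neurons; without posterior replicate 3 these were -6.86 for Lamp5 and -6.78 for Neurod6. The cells without Chat were mostly of another kind by transporter: 101687 of 120180 passed by Slc17a7 and 30249 by Slc17a6, while 108 of the 118 Chat cells passed by Slc17a6 alone. The comparison was therefore repeated with the Slc17a6 gate alone on both sides, an alternative added after this was seen.

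With the Slc17a6 gate on both sides, 109 of 290 genes differed, 53 higher and 56 lower in Chat cells. Igf1 (log2 4.07), Chodl (log2 3.32), Meis2 (log2 2.89), Serpinf1, a secreted serpin (log2 2.88), Tacr1 (log2 2.60), Htr2c (log2 1.97), Sncg (log2 1.96), Rab3b (log2 1.46) and Chrm2 (log2 0.86) were higher in the Chat cells. Tacr1 was 6.07-fold higher there (adjusted p = 0.00023, edgeR's quasi-likelihood test). Calb2 no longer passed edgeR's test (log2 0.58, adjusted p = 0.17). Lamp5 (log2 -2.52) and Neurod6 (log2 -2.21) were still lower, by less. Of the 42 genes named for this comparison, 21 passed in the same direction under every alternative.

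Against the Chat cells past neither gate, in the same 4 sections, 129 of 217 genes (59.4%) differed, 66 (30.4%) higher and 63 (29.0%) lower in the glutamate-gated Chat cells. The higher genes included the growth factor Bdnf (log2 4.48, SE 0.57), Igf1 (log2 4.17), the neurite growth gene Nrn1 (log2 4.11, SE 0.27), the transcription factor Fezf2 (log2 3.28), Calb2 (log2 3.21, SE 0.21) and Htr2c (log2 2.38). Nrn1 had 17.3, 25.6 and 36.2 per 1000 in glutamate-gated Chat cells, against 0.844, 1.61 and 4.23 in all sections of the cells past neither gate. Lower were Cd44 (log2 -2.56), Rab3b (log2 -2.02), Sncg (log2 -1.96), Prox1 (log2 -1.71) and Chrm2 (log2 -1.22), with all 3 oligodendrocyte and all 6 astrocyte markers. Tacr1 did not pass (log2 -0.59, SE 0.24, adjusted p = 0.059, edgeR's quasi-likelihood test). Without posterior replicate 3 the log2 difference of Bdnf was 5.27. Without intermediate replicate 1, and likewise without anterior replicate 2, the count of differing genes was 93.

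Glutamate-gated Chat cells were themselves mixed in Nwd2, the gene listed for the medial habenula. It had 3.66, 5.37 and 22.9 per 1000 in the lowest, median and highest of the 4 sections, the highest being posterior replicate 1. Glutamate-gated cells without Chat had 3.94, 4.62 and 5.55 over the 7 sections. Against those cells Nwd2 did not pass the test (log2 0.74), while against Chat cells past neither gate it was higher (log2 3.67). Only 14 glutamate-gated Chat cells held 10 or more Nwd2 transcripts, 11 of them in posterior replicate 1. Of the 14, 10 passed the Slc17a7 gate, against 0 of the other 104 cells. Nwd2 made this split, so its pooled levels, 79.9 per 1000 in the 14 cells and 4.38 in the 104 cells, follow from it. For genes that did not make the split, the 14 cells had 35.2 Cpne4, 31.0 Necab2 and 18.7 Syt6 per 1000, pooled. The 104 cells had 1.85 Cpne4, 1.5 Necab2 and 1.25 Syt6. Tacr1 was at 5.55 in the 14 cells and 2.60 in the 104 cells, and Calb2 ran the other way, at 9.71 in the 14 cells and 26.8 in the 104 cells. The split and these genes were chosen after the values were seen, nearly all of the 14 cells came from 1 section, and nothing was tested on them.

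The position of the section was compared between the 3 posterior and the 2 anterior sections. Chat cells were 7.47 ± 1.81 of every 1000 cells in posterior sections (SD, n = 3) and 7.01 ± 0.873 in anterior sections (SD, n = 2), a difference of 0.458 (two-sided exact permutation test, p = 1.0, where the smallest possible value was 0.2). The GABA-gated share of Chat cells averaged 64.8% in posterior and 72.8% in anterior sections, and the share past neither gate 15.4% in posterior and 10.2% in anterior sections. In both cases the sections did not overlap, and the exact permutation p was 0.2, the smallest this design can give.

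No gene passed the test of position in the Chat cells. In GABA-gated Chat cells 0 of 286 genes (0%) passed by edgeR's quasi-likelihood test, 24 had an unadjusted p below 0.05, and DESeq2 called 0. Past neither gate 0 of 213 (0%) passed, 11 had an unadjusted p below 0.05, and DESeq2 called 1. For the interaction of class and position 0 of 287 (0%) passed, 13 had an unadjusted p below 0.05, and DESeq2 called 0. In GABA-gated Chat cells the posterior minus anterior log2 difference was 0.00 (SE 0.17) for Chrm2, -0.10 (SE 0.21) for Tacr1, 0.21 (SE 0.22) for Sncg and 0.37 (SE 0.23) for Cd44. Pdyn had the value 0.85 (SE 0.27, adjusted p = 0.23 by edgeR's quasi-likelihood test). Posterior replicates 3 and 4 were on the second slide, which held no anterior section, so slide and position can be compared only on the first slide.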

How the data were processed

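Transcripts of 297 genes were counted per segmented cell by Xenium in 7 sections. The counts are raw whole numbers per gene and cell as the authors deposited them, and Seurat is named per the submitters' processing notes; how cells were segmented, decoded and filtered was not stated in the sources used. Cells were joined by barcode with the deposited cell table, whose section column gave each cell's section, and cell sums equalled the deposited totals in 100% of cells. Without their section suffix, 8 barcodes occurred in more than 1 section. Nothing was done about doublets, and transcripts of neighbouring cells may fall within a cell's outline. The Chat cells and gene lists were chosen with earlier results of these data known.

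Counts were summed per section and class, leaving out sums of fewer than 10 cells, and tested by edgeR 4.0.16 (quasi-likelihood, TMM scaling, filterByExpr, section as a block) in R 4.3.3 with Benjamini-Hochberg adjustment at 0.05 over all genes outside the rule that passed the filter. The 5 position tests of shares, unadjusted, were exact permutation tests. SE is the log2 difference divided by the square root of F. Levels are means over sections with at least 10 cells. Genes named were the 8 largest differences each way with 1 sign in every section, plus up to 4 per list by adjusted p, and markers; others are said to be chosen after their values were seen. On data simulated from the cells past neither gate and the GABA-gated Chat cells, 96.7% of genes changed by log2 1 were recovered. The simulation used an assumed spread, not one estimated from the sections, and changed only genes above a minimum level. The rate therefore checks the code and does not measure the power of these tests. Alternatives were DESeq2 1.42.0, total counts in place of TMM, no filter, Chat of at least 6, gates of at least 10, cells of at least 200 transcripts, cells past both gates counted in both classes, no section block, a replicate block, no glial and vascular markers, and leaving out each section. No sequence is printed, since the deposited counts name genes alone.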

Additional observations from a re-analysis of the deposited data

How the results depend on the processing

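The counts of differing genes stayed within 1.5 times the reported count under every alternative run in 4 comparisons of classes: 157 to 215 for neither gate against GABA-gated Chat cells, 166 to 204 for GABA-gated Chat cells against cells without Chat, 176 to 243 for neither gate against GABA-gated cells without Chat, and 109 to 199, against the reported 135, for glutamate-gated Chat cells against cells without Chat. For glutamate-gated Chat cells against neither gate the count was 204 with cells past both gates counted in both classes. With 1 of the 4 sections used left out it was 93 to 114, against the reported 129. For the glutamate-gated comparisons, leaving out a section they did not use repeats the main fit and tests nothing. With a replicate block in place of the section block, the counts were 196, 186, 215, 158 and 135 in the order above. The difference between replicates 1 and 2 in the anterior sections correlated with that in the intermediate sections across genes (0.246 past neither gate and 0.446 in GABA-gated Chat cells), but the labels do not say that a number pairs sections, and there were only 2 pairs.

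For position, the replicate block gave 3 genes past neither gate (Aldh1a2, Dcn and Gpr17) and 4 in GABA-gated Chat cells (Cd44, Dpy19l1, Pdyn and Rxfp1), DESeq2 gave 1 past neither gate, and leaving out 1 section gave 0 to 1 past neither gate, 0 to 3 in GABA-gated Chat cells and 0 to 1 for the interaction. The difference in the share of Chat cells turned to -0.180 per 1000 among cells of at least 200 transcripts, to -0.556 on the first slide alone, and ran between -0.589 and 1.08 with 1 section left out; the cause was not tested.

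Among named genes, those passing in the same direction under every alternative were 40 of 45 for GABA-gated Chat cells against cells without Chat, 39 of 43 for neither gate against GABA-gated Chat cells, 42 of 43 for neither gate against GABA-gated cells without Chat, and 27 of 37 for glutamate-gated Chat cells against neither gate. Counting cells past both gates in both classes turned Nrn1 (-1.20) for neither gate against GABA-gated Chat cells. It also turned Vip (4.38) for glutamate-gated Chat cells against cells without Chat. For glutamate-gated Chat cells against neither gate it turned Car4 (0.052), Penk (0.9997), Prox1 (0.27) and Arc (1.40). This setting adds all cells past both gates to the GABA-gated and glutamate-gated classes. Of the 369 Chat cells added, 150 held 5 or more Vip transcripts. Which of the added cells turned these genes was not tested. Vip also turned with gates of at least 10 (0.63). With the Slc17a6 gate on both sides, an alternative chosen after seeing the data, Hs3st2 (0.47), Oprm1 (-0.60), Cplx3 (0.48) and Gfra2 (0.49) turned, which removes the cells gated by Slc17a7. The depth of 256 transcripts in the median cell past neither gate limits the sorting of these cells by a gate of 5 transcripts.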
